A study of Mus musculus with 17 samples.

Results

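A set of 10 genes listed as pleural mesothelial was followed through irradiated mouse lungs: Upk3b, Lrrn4, Msln, Upk1b, Wt1, Muc16, Gpm6a, Bnc1, Rspo1 and Calb2. Calb2 had no count in any control library, so it did not mark the mesothelium of the control lungs here. They are 10 of the 45777 genes counted, and all 10 were among the 22052 genes tested. The symbols were chosen from earlier results of these same libraries as well as from what the genes are known for, so their levels and fold changes are given as descriptions, and each call is read only beside the share of all genes called. The RNA came from lungs of wild-type male C57BL/6 mice that arrived at 6 weeks of age and were acclimatised for 1 week. The left lung received a single focal fraction of 65 or 75 Gy, RNA was extracted from the lesions, and lungs were collected after 2 weeks, the inflammation stage, or after 6 weeks, the fibrosis stage. Non-irradiated mice of each time served as controls. There were 3 libraries in each of the 6 groups of dose and time, except for 65 Gy at 6 weeks, which had 2. The study lists 3 replicates for that group, and only 2 were available here. The 17 libraries held between 46764569 and 66797879 counts with a median of 57608149. The labels name separate samples without saying more about their origin, so the p-values measure the spread between these samples.

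The mesothelium is the single layer of flat cells that covers the lung surface and faces the pleural space. Its cells make lubricating glycoproteins, carry microvilli, and in the embryo give rise to fibroblasts and smooth muscle of the organ below. They are few against the epithelium, endothelium and leukocytes of a whole lung, and how much of the surface enters a sample depends on where the tissue is taken. The lung label was borne out by the alveolar type 2 markers, which summed to between 14885 and 27447 CPM (counts scaled to the size of the library) in every library. In these bulk samples fewer mesothelial cells and less RNA per mesothelial cell cannot be told apart.

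The stretches just upstream of Upk3b, Lrrn4 and Bnc1 are shown because these genes followed each other most closely from library to library. They are the 250 bases before the start site in RefSeq on GRCm38.p6, read 5′ to 3′ on the strand of the gene. Capitals mark a match to GGAATG, the core that TEAD factors bind, or to GNGTGGGNG, a motif of the WT1 and EGR type, on either strand. Upk3b lies at chr5:136038246-136038495 on the plus strand, Lrrn4 at chr2:132880863-132881112 and Bnc1 at chr7:81992300-81992549, both on the minus strand.
Upk3b: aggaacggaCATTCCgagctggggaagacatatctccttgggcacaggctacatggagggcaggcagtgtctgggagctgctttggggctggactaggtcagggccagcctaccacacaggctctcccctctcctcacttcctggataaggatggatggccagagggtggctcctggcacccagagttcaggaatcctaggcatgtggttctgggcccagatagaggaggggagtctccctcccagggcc
Lrrn4: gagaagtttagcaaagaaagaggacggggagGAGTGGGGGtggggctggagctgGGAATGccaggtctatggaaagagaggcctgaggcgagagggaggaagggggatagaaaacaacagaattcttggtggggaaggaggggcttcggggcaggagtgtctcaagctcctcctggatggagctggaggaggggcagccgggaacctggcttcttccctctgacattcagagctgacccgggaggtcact
Bnc1: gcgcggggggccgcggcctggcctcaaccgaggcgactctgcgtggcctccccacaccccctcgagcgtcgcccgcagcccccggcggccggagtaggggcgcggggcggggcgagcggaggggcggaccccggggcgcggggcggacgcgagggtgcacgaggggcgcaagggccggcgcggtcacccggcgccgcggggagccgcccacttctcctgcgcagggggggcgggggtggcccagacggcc
The Upk3b stretch holds GGAATG on the opposite strand, 236 bases before the start. The Lrrn4 stretch holds both motifs, GGAATG at 191 bases and GNGTGGGNG at 211 bases before a start that lies inside the span of the gene. In the Bnc1 stretch, with a GC content of 83.6% against 60.8% for Upk3b and 59.2% for Lrrn4, neither set of letters occurs. RefSeq start sites were found for 6 of the 10 genes, in 7 stretches, and of these 3 held GGAATG (Lrrn4, Upk3b and 1 of those of Gpm6a) and 1 held GNGTGGGNG. Among 32851 such stretches of all genes the shares were 12.6% and 12.7%. These matches are a description of letters in the window and not of binding. Msln, Upk1b, Wt1 and Calb2 had no entry.

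In control lungs the order of the genes per kilobase of exon was led by Gpm6a, a neuronal membrane glycoprotein also found on mesothelium, with a mean of 22.1 CPM per kb at 2 weeks and 19.2 at 6 weeks. Upk1b, a tetraspanin of the uroplakin family, followed with 18.4 and 15.7 CPM per kb. Msln, which encodes the surface protein mesothelin, had 12.6 and 5.94 CPM per kb, and Upk3b, another uroplakin, had 8.56 and 4.75. Lrrn4 (5.42 and 2.71) and the secreted WNT amplifier Rspo1 (5.31 and 6.47) came next at 2 weeks, while at 6 weeks Rspo1 stood just above Msln. The transcription factors Bnc1 (0.523 and 0.272) and Wt1 (0.385 and 0.213) and the very long mucin gene Muc16 (0.437 and 0.288) were all under 1 CPM per kb. Calb2, which encodes the calcium-binding protein calretinin, had no count in any control library. On this scale the control libraries of neighbours in the order overlapped at 2 weeks, except that the last 3 genes lay below the 6 above them. At 6 weeks Upk1b also lay above Rspo1, the next gene in that order. On GRCm38.p6 the genes that later fell or rose are Upk3b (NCBI GeneID 100647, chr5:136038496-136044993), Lrrn4 (320974, chr2:132866686-132894010), Wt1 (22431, chr2:105126529-105173614), Muc16 (73732, chr9:18495445-18674821), Rspo1 (192199, chr4:124986401-125009102) and Calb2 (12308, chr8:110142526-110168212). Lrrn4 overlaps the gene Crls1, and Muc16, Gpm6a and Rspo1 each overlap a long non-coding RNA. Whether strand was used in counting is not given in the sources used here, so reads in those overlaps may be shared.

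**Figure D1:**
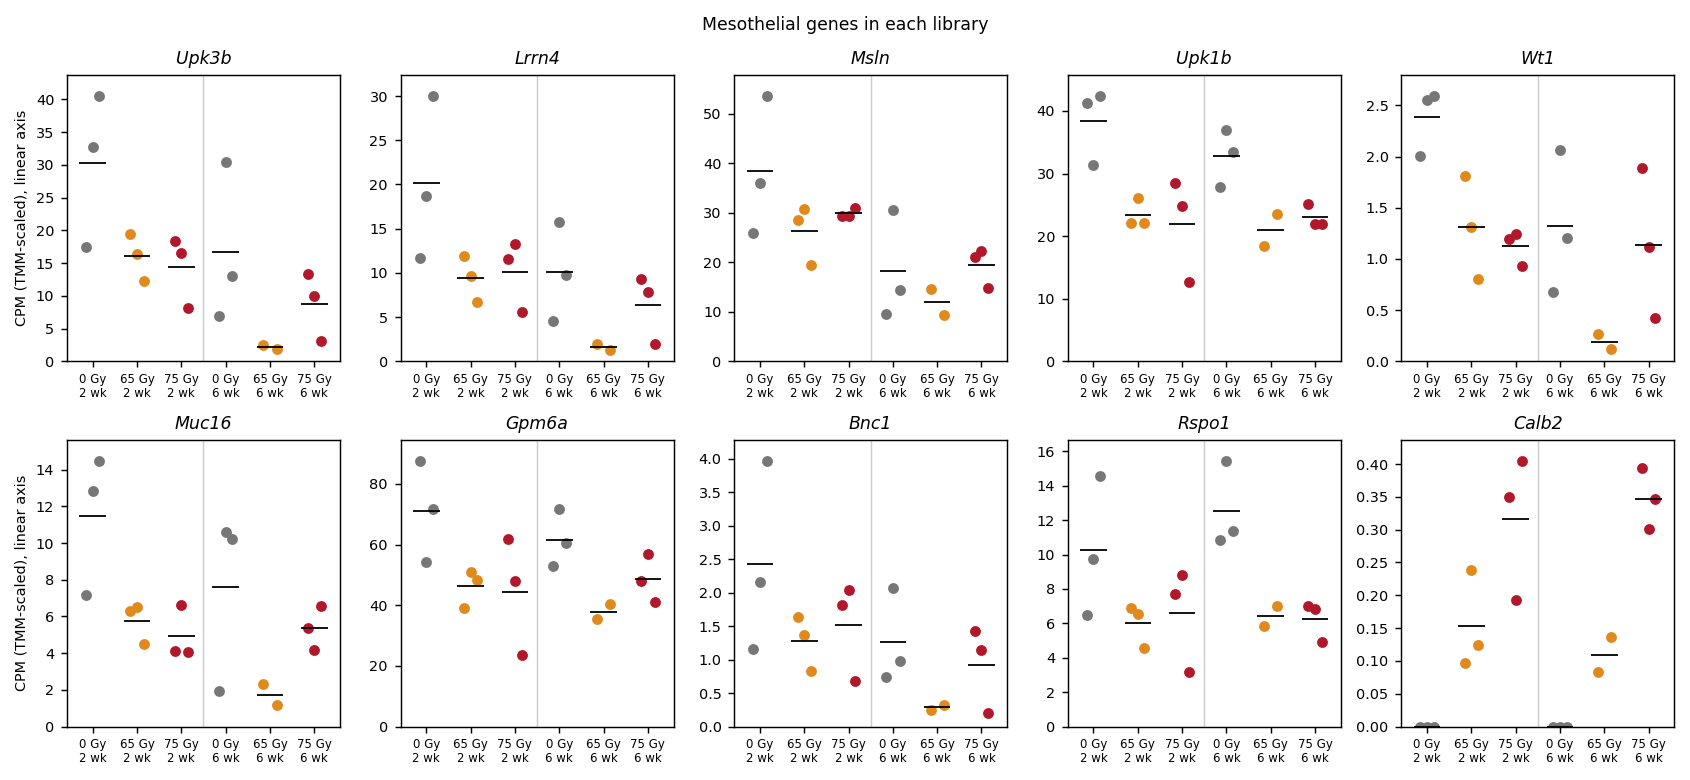
Level of each of the 10 genes in CPM after TMM scaling, on linear axes that start at 0. Each point is a library, grey for controls, orange for 65 Gy and red for 75 Gy, and each bar is the group mean. At 6 weeks both 65 Gy libraries lay below 2.5 CPM for Upk3b, and Calb2 had 0 CPM in all 6 control libraries.

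At 6 weeks after 65 Gy, 4 of the 9 genes other than Calb2 fell, namely Upk3b, Lrrn4, Wt1 and Muc16. They were called by edgeR's quasi-likelihood test, where a call needs both an adjusted p no higher than 0.05 and a log2 fold change of 1 or more in size, and 0.943% of all genes were called lower. Calb2 was called higher, which makes 5 called genes with it, beside 5.28% of all genes in either direction, but it reached the test only through the irradiated libraries and is described apart. The median log2 fold change of the 9 genes other than Calb2 was -2.12, and that of all genes tested was 0.01. At the other dose and at the earlier time the same genes were mostly below the controls but far fewer met both limits. The shortfall at 65 Gy was thus the largest of the 4 comparisons with controls by this median.

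Upk3b stood at 6.88, 30.4 and 12.97 CPM in the control libraries of 6 weeks, at 2.49 and 1.95 after 65 Gy, and at 13.3, 9.91 and 3.05 after 75 Gy. Both 65 Gy libraries lay below every control, while the 75 Gy libraries overlapped the controls. The 65 Gy fold change was -2.91 ± 0.68 on the log2 scale (SE, adjusted p = 0.0113), and that of 75 Gy was -0.93 ± 0.53 (adjusted p = 0.183). The 2-week levels were 17.4, 32.7 and 40.6 CPM in controls, 19.4, 16.4 and 12.3 after 65 Gy, and 18.4, 16.6 and 8.16 after 75 Gy. The lowest control of that time lay within the range of the irradiated libraries.

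Lrrn4, a leucine-rich repeat membrane protein used as a mesothelial marker, had 4.59, 15.8 and 9.76 CPM in the 6-week controls. It had 2.00 and 1.31 CPM after 65 Gy and 9.32, 7.80 and 1.95 CPM after 75 Gy. Again the 65 Gy libraries did not reach the lowest control, and library 3143 of 75 Gy stood with them. The change with 65 Gy was -2.60 ± 0.67 (log2, SE, adjusted p = 0.0188) and that with 75 Gy -0.66 ± 0.53 (adjusted p = 0.352). In the 2-week groups the values were 11.7, 18.7 and 30.0 CPM in controls, 11.9, 9.63 and 6.73 after 65 Gy and 11.5, 13.3 and 5.61 after 75 Gy, with overlap at both doses.

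Wt1, a zinc-finger factor of the embryonic and adult mesothelium, had 0.681, 2.07 and 1.20 CPM in the 6-week controls. It had 0.264 and 0.119 CPM after 65 Gy, but 1.89, 1.11 and 0.420 CPM after 75 Gy. The 65 Gy pair was apart from all 3 controls and from all 3 of the 75 Gy libraries. Wt1 fell by 2.76 on the log2 scale after 65 Gy (SE 0.64, adjusted p = 0.0106), and its change after 75 Gy was -0.20 ± 0.47. At 2 weeks the controls had 2.01, 2.55 and 2.59 CPM, the 65 Gy libraries 1.81, 1.32 and 0.801, and the 75 Gy libraries 1.19, 1.24 and 0.932. Every irradiated library of 2 weeks lay below every control, with log2 changes of -0.86 ± 0.46 and -1.09 ± 0.47 that did not pass the adjusted limit.

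Bnc1, the gene of the zinc-finger protein basonuclin 1, had 0.746, 2.07 and 0.978 CPM in the 6-week controls, 0.247 and 0.324 after 65 Gy, and 1.43, 1.15 and 0.201 after 75 Gy. The 65 Gy libraries were below every control and the log2 change was -2.13 ± 0.78, with an adjusted p of 0.0787 by edgeR and 0.0194 by DESeq2. The 75 Gy change was -0.44 ± 0.61. Controls of 2 weeks ranged from 1.16 to 3.97 CPM, the 65 Gy libraries from 0.837 to 1.63 and the 75 Gy libraries from 0.686 to 2.04.

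The surface glycoproteins did not move alike. Muc16, the large membrane mucin that carries the CA125 epitope, had 1.96, 10.6 and 10.2 CPM in the 6-week controls, 2.29 and 1.18 after 65 Gy, and 5.35, 4.16 and 6.59 after 75 Gy. Control library 3135 fell between the 65 Gy libraries, so the groups overlapped although the gene fell by 2.12 (log2, SE 0.57, adjusted p = 0.0226). At 2 weeks the controls had 7.16, 12.9 and 14.5 CPM and the 6 irradiated libraries lay from 4.04 to 6.61, all below the controls. The log2 changes of Muc16 at that time were -0.99 ± 0.46 after 65 Gy and -1.22 ± 0.47 after 75 Gy, with adjusted p of 0.192 and 0.0733.

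Msln kept nearer to its controls than Upk3b did. It had 9.47, 30.6 and 14.5 CPM in the 6-week controls, 14.6 and 9.29 after 65 Gy, and 21.1, 22.2 and 14.8 after 75 Gy. The log2 changes were -0.60 ± 0.40 and 0.09 ± 0.35, and the libraries overlapped at both doses. The log2 ratio of Msln to Upk3b counts was 0.01 to 0.46 in the 6-week controls, 2.25 to 2.55 after 65 Gy and 0.67 to 2.28 after 75 Gy, so that every irradiated library of that time was above every control on this ratio. At 2 weeks Msln had 25.9, 35.9 and 53.6 CPM in controls, 28.6, 30.8 and 19.4 after 65 Gy and 29.3, 29.4 and 30.9 after 75 Gy.

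Upk1b and Gpm6a, the most abundant of the genes per kilobase, lay below their controls on average in each of the 4 comparisons and were called in none. Upk1b had 41.2, 31.4 and 42.4 CPM in the 2-week controls, 22.1, 26.1 and 22.1 after 65 Gy and 28.5, 24.9 and 12.6 after 75 Gy, and at 6 weeks it had 27.8, 37.0 and 33.4 CPM in controls, 18.4 and 23.6 after 65 Gy and 25.2, 21.9 and 21.9 after 75 Gy. In all 4 comparisons every irradiated library was below every control. The log2 changes ran from -0.51 ± 0.22 at 75 Gy and 6 weeks to -0.80 ± 0.22 at 75 Gy and 2 weeks, where the adjusted p was 0.0187 but the fold limit was not reached. Gpm6a had 87.5, 54.3 and 71.8 CPM in the 2-week controls against 39.2, 51.0 and 48.5 after 65 Gy and 61.7, 47.8 and 23.7 after 75 Gy. At 6 weeks it had 52.8, 71.7 and 60.5 CPM in controls, 35.4 and 40.5 after 65 Gy and 48.1, 56.8 and 41.1 after 75 Gy. The Gpm6a groups were apart for 65 Gy at both times and overlapped for 75 Gy.

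Rspo1, whose product binds LGR receptors and raises WNT signalling, had 10.8, 15.4 and 11.4 CPM in the 6-week controls, 5.85 and 7.00 after 65 Gy and 6.99, 6.81 and 4.91 after 75 Gy. All 5 irradiated libraries lay below the 3 controls. The log2 change was -0.96 ± 0.38 after 65 Gy (adjusted p = 0.101) and -1.01 ± 0.33 after 75 Gy (adjusted p = 0.0278), so Rspo1 fell at 75 Gy by little more than the fold limit and was lost from the calls with upper-quartile scaling (-0.97), without a filter on low counts (-0.999) and with at least 10 counts in every library (-0.99). It was also lost without any 1 of 5 libraries, 3126, 3132, 3136, 3142 and 3143, with log2 changes from -1.10 to -0.83 when a library of either group was left out. At 2 weeks the controls had 6.52, 9.74 and 14.6 CPM, the 65 Gy libraries 6.89, 6.57 and 4.54 and the 75 Gy libraries 7.72, 8.82 and 3.20, which overlapped.

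Calb2 went the other way. Its counts were 0 in all 6 control libraries, 6, 15 and 7 after 65 Gy at 2 weeks, 20, 13 and 23 after 75 Gy at 2 weeks, 5 and 8 after 65 Gy at 6 weeks, and 24, 17 and 19 after 75 Gy at 6 weeks. Every irradiated library thus held counts that no control did, and the gene passed the filter on low counts only through the irradiated groups. Against a floor of 3 counts over the control group, the pooled level was 7.65-fold higher after 65 Gy and 15.3-fold higher after 75 Gy at 2 weeks. At 6 weeks it was 6.36-fold and 20.3-fold higher. The irradiated side of these folds rests on 28, 56, 13 and 60 counts in turn, and its own counting error is not included. Because Calb2 was tested only through the irradiated groups, its calls are not read as support, and its levels stayed under 0.41 CPM. Calretinin is also found in neurons, and the summed CPM of 5 neuroendocrine and neural markers ranged from 4.94 to 6.95 in the 6-week controls, 6.22 to 8.91 after 65 Gy and 6.23 to 11.1 after 75 Gy. At 2 weeks the same sum was 4.25 to 6.45 in controls, 5.88 to 6.67 after 65 Gy and 5.38 to 7.00 after 75 Gy. Their part in the Calb2 counts was not tested.

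**Figure D2:**
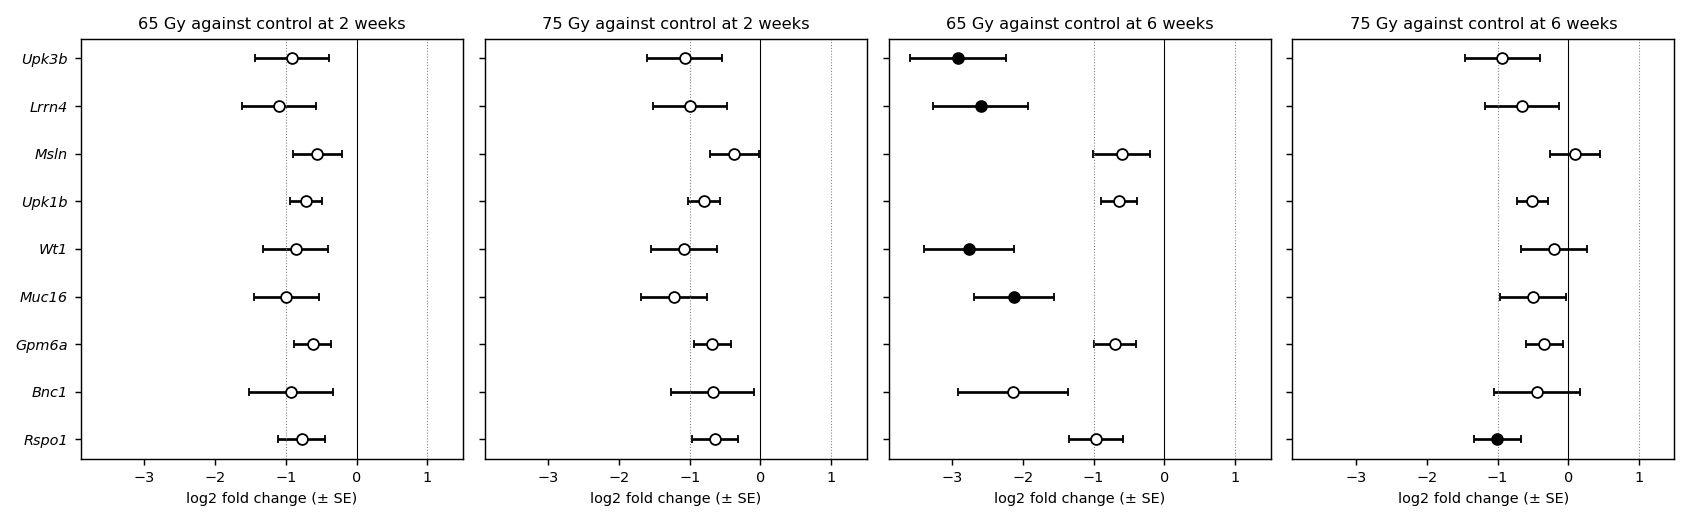
Log2 fold change ± SE of the 9 genes other than Calb2 against the controls of the same time, in 1 panel for each dose and time. Filled points passed both limits (dotted lines mark a log2 change of 1 in either direction), and they are Upk3b, Lrrn4, Wt1 and Muc16 at 65 Gy and 6 weeks and Rspo1 at 75 Gy and 6 weeks.

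Counted over the 4 comparisons with controls, the genes below 0 in log2 fold change were 9, 9, 9 and 8 of 10, for 65 Gy and 75 Gy at 2 weeks and for 65 Gy and 75 Gy at 6 weeks. Without Calb2 the medians were -0.86, -0.80, -2.12 and -0.50. The comparisons of the 2 doses share the control libraries of their time, so they are not separate evidence. At 2 weeks 1 gene was called at either dose, Calb2 each time, where 4.35% of all genes were called at 65 Gy and 7.74% at 75 Gy. None was called lower at 2 weeks by edgeR, against 0.88% and 2.07% of all genes, and 5 of the 10, Calb2 among them, had an unadjusted p under 0.05 at each dose, as did 25.4% of all genes at 65 Gy and 35% at 75 Gy. DESeq2 called 0 lower at 65 Gy and 1 at 75 Gy, Muc16 with -1.22. At 75 Gy and 6 weeks 2 genes were called, Calb2 and Rspo1, beside 10.4% of all genes, and 1 was lower beside 3.13%.

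Counted by separation of the libraries, every irradiated library was below every control for 4 genes at 65 Gy and 2 weeks (Upk1b, Wt1, Muc16 and Gpm6a), where 13.5% of all genes did the same, and for 3 at 75 Gy and 2 weeks (Upk1b, Wt1 and Muc16), beside 14.8%. At 6 weeks 7 genes were separated at 65 Gy, all but Msln, Muc16 and Calb2, where the share of all genes was 28.1%. At 75 Gy and 6 weeks 2 were separated, Upk1b and Rspo1, beside 27.7%.

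The 4 lower calls at 65 Gy and 6 weeks rested on both of its libraries. Without 3138 or without 3140 only Calb2 was called, with the lone library assumed to vary like the other groups, and the log2 changes of Upk3b were then -3.09 and -2.73 with adjusted p of 0.0901 and 0.106. Without control library 3136, the highest control of 6 weeks for all 9 genes other than Calb2, 3 genes were called in all and the log2 change of Lrrn4 was -2.11 (adjusted p = 0.0652) and that of Muc16 -1.81 (adjusted p = 0.0742). Without 75 Gy library 3143 the count was 6.

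**Figure D3:**
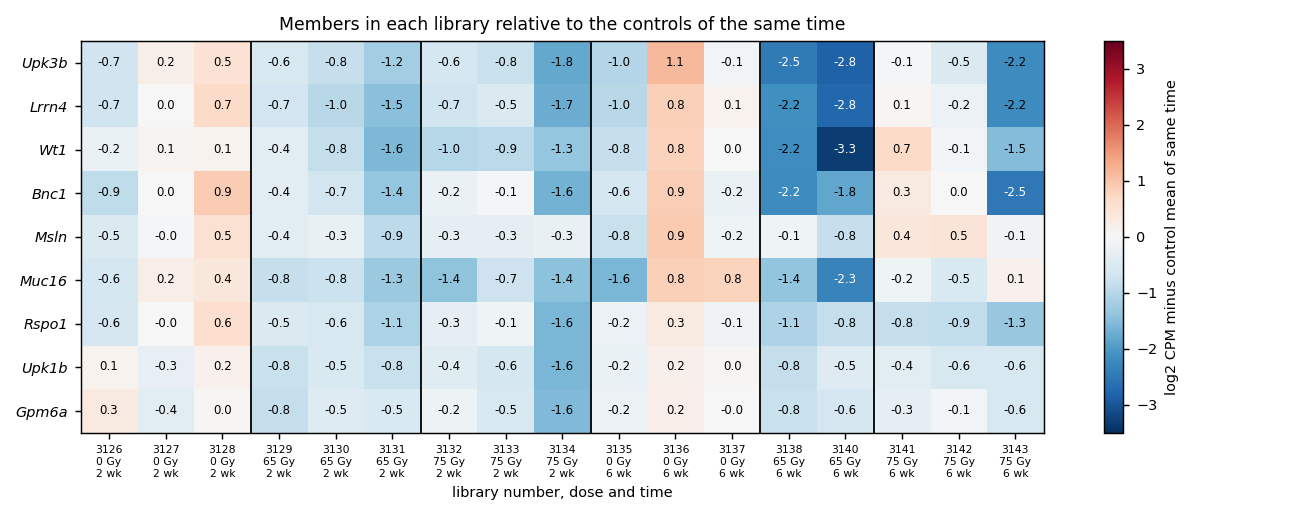
Log2 CPM of the 9 genes other than Calb2 in each of the 17 libraries, minus the mean of the controls of the same time, with blue below and red above that mean. Libraries 3138 and 3140 of 65 Gy and 6 weeks are at -2.5 and -2.8 for Upk3b, and 75 Gy libraries 3134 and 3143 are at -1.8 and -2.2.

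Between the doses the test called none of the 10 genes at either time, and 0% of all genes. At 2 weeks none of the 10 had an unadjusted p under 0.05 either, DESeq2 called 0 of them, and the interval of the 75 Gy against 65 Gy difference for Upk3b ran from -1.27 to 0.96 on the log2 scale. At 6 weeks the 75 Gy libraries held more: 6 of the 10 had an unadjusted p under 0.05, as did 6.49% of all genes. Every 75 Gy library was above both 65 Gy libraries for Upk3b, Msln, Wt1, Muc16, Gpm6a and Calb2, and 15.6% of all genes did so. Wt1 differed by 2.56 ± 0.63 (log2, SE, adjusted p = 0.735 by edgeR), and it was the 1 gene of the 10 that DESeq2 called (adjusted p = 0.0407). Upk3b differed by 1.98 ± 0.66 with a 95% interval from 0.58 to 3.39. By edgeR all of these differences failed the correction over all genes.

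The controls themselves shifted with time. Control levels at 6 weeks were below those at 2 weeks for 8 of the 10 genes, with a log2 change of -1.08 ± 0.36 for Msln (adjusted p = 0.157), -1.005 ± 0.52 for Lrrn4 and -0.85 ± 0.52 for Upk3b, whereas Rspo1 was at 0.29 ± 0.33. The libraries of the 2 times overlapped for every one of these genes, and none was called by edgeR beside 0.576% of all genes. Of the 10, Msln alone had an unadjusted p under 0.05, where 15.5% of all genes had one, and DESeq2 called 1 of the 10 and 221 of the 22052 genes tested. Without control library 3136 edgeR called 1 as well.

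The effect of 65 Gy at 6 weeks minus its effect at 2 weeks was -1.999 ± 0.83 for Upk3b and -1.90 ± 0.77 for Wt1 on the log2 scale. These were the only 2 of the 10 genes with an unadjusted p under 0.05 for that difference, 8.65% of all genes had one too, neither passed the adjustment (adjusted p = 0.548 and 0.545), and DESeq2 called 0. Of all genes 0.0136% were called. For 75 Gy the difference lay between -0.36 (Rspo1) and 0.88 (Wt1) for the 9 genes other than Calb2, none had an unadjusted p under 0.05 where 16.1% of all genes had, DESeq2 called 0, and 0.254% of all genes were called. A change of the dose effect with time was thus not shown for any of the 10.

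Within groups, some of the genes rose and sank together from library to library. Over the 17 libraries, the deviations of log2 CPM from the group means had a Pearson r of 0.97 between Upk3b and Lrrn4, 0.95 between Lrrn4 and Bnc1, 0.93 between Upk3b and Bnc1 and 0.90 between Wt1 and either of Upk3b and Lrrn4. Upk1b and Gpm6a formed another pair with r = 0.90, while Upk1b and Msln had only 0.17 and Gpm6a and Muc16 0.05. Calb2 had r between -0.26 and -0.01 with the others. These are descriptions over libraries that share their scaling and depth. Control library 3128 was the highest of the 2-week controls for each of these genes except Gpm6a and Calb2. Library 3134 of 75 Gy was the lowest of its group for each of them except Calb2 and Msln, and its Msln, at 30.9 CPM, was the highest.

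**Figure D4:**
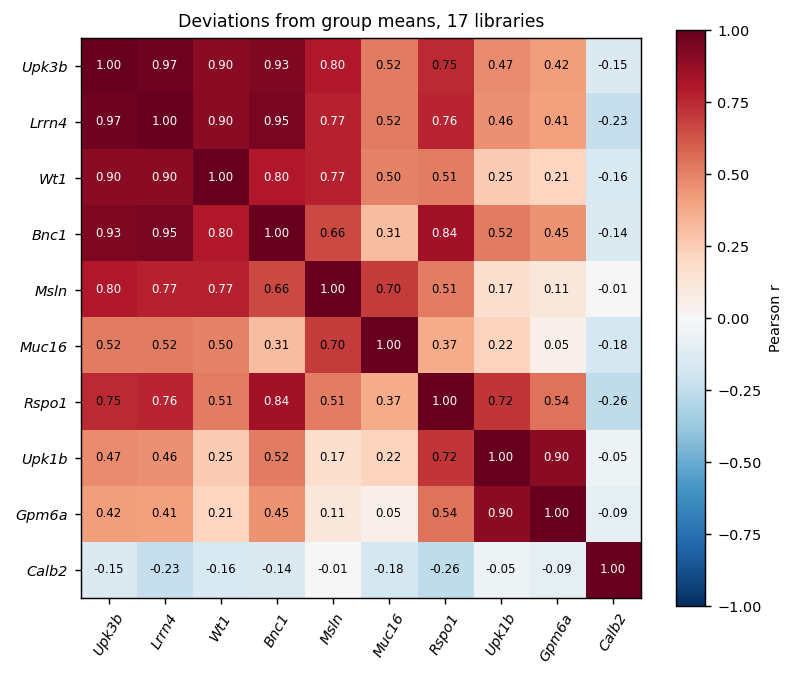
Pearson r between the 10 genes of the deviations of log2 CPM from the group means over 17 libraries, from -1 (blue) to 1 (red). Upk3b, Lrrn4, Wt1 and Bnc1 form a block with r of 0.80 to 0.97, Upk1b and Gpm6a a pair at 0.90, and Calb2 is below 0 with each of the others.

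Of 14476 other genes whose mean log2 CPM reached 1, those whose deviations were most like the mean of the 10 were Cldn15 (r = 0.96), Aldh1a2 (0.89) and Pkhd1l1 (0.88), followed by Cdnf (0.88), Wdr25 (0.87), Tnfsf13os (0.86), Galnt17 (0.84) and Mccc1 (0.83). The first 3 also stand in a separate list of 14 mesothelial genes. Cldn15, a tight-junction claudin, had 2.30, 5.49 and 3.11 CPM in the 6-week controls, 1.60 and 1.26 after 65 Gy and 4.002, 3.20 and 2.08 after 75 Gy. The 65 Gy libraries were below every control, and Cldn15 fell by 1.34 on the log2 scale (SE 0.40, adjusted p = 0.0359). Pkhd1l1, a large membrane protein of the fibrocystin family, had 5.56, 15.5 and 9.13 CPM in those controls, 3.68 and 2.46 after 65 Gy and 10.1, 7.86 and 3.80 after 75 Gy. It fell by 1.71 at 65 Gy (SE 0.46, adjusted p = 0.0238), with the groups apart, and its change at 75 Gy was -0.47 ± 0.39. Aldh1a2, the retinoic acid-forming enzyme, was at -0.47 at 65 Gy and 0.19 at 75 Gy and 6 weeks, with adjusted p of 0.388 and 0.658.

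The 14 further mesothelial genes as a list shifted less than the 10. Their median log2 changes were -0.29 and -0.49 at 2 weeks and -0.28 and -0.04 at 6 weeks, for 65 Gy and 75 Gy in turn. At 2 weeks 1 rose and 1 fell at 65 Gy (4.35% of all genes called), and 1 fell at 75 Gy (7.74%). At 6 weeks 1 rose and 2 fell at 65 Gy (5.28%), and 2 rose at 75 Gy (10.4%). Igfbp6, an IGF-binding protein, fell at 2 weeks by 1.11 at 65 Gy (adjusted p = 0.0152) and by 1.30 at 75 Gy (adjusted p = 0.00298), from 126 to 157 CPM in controls to 27.2 to 78.4 in the irradiated libraries. At 6 weeks its libraries were apart as well, with 108 to 140 CPM in controls and 53.0 to 72.0 after irradiation. The 65 Gy change of that time was -0.97 by edgeR (adjusted p = 0.0441), short of the fold limit. Prg4, the lubricant proteoglycan of joints and serous surfaces, rose by 2.05 at 65 Gy and 2 weeks (adjusted p = 0.0303) and by 3.02 at 75 Gy and 6 weeks (adjusted p = 0.00113), where 0.471 to 0.876 CPM in controls stood against 3.76 to 8.50. Fgf9, a fibroblast growth factor made by the developing mesothelium, rose at 6 weeks by 1.74 at 65 Gy (adjusted p = 0.0109) and by 2.30 at 75 Gy (adjusted p = 0.000337), from 0.105 to 0.211 CPM in controls to 0.478 to 0.820 in the irradiated libraries. None of the irradiated libraries of 6 weeks overlapped the controls for Prg4 or Fgf9.

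**Figure D5:**
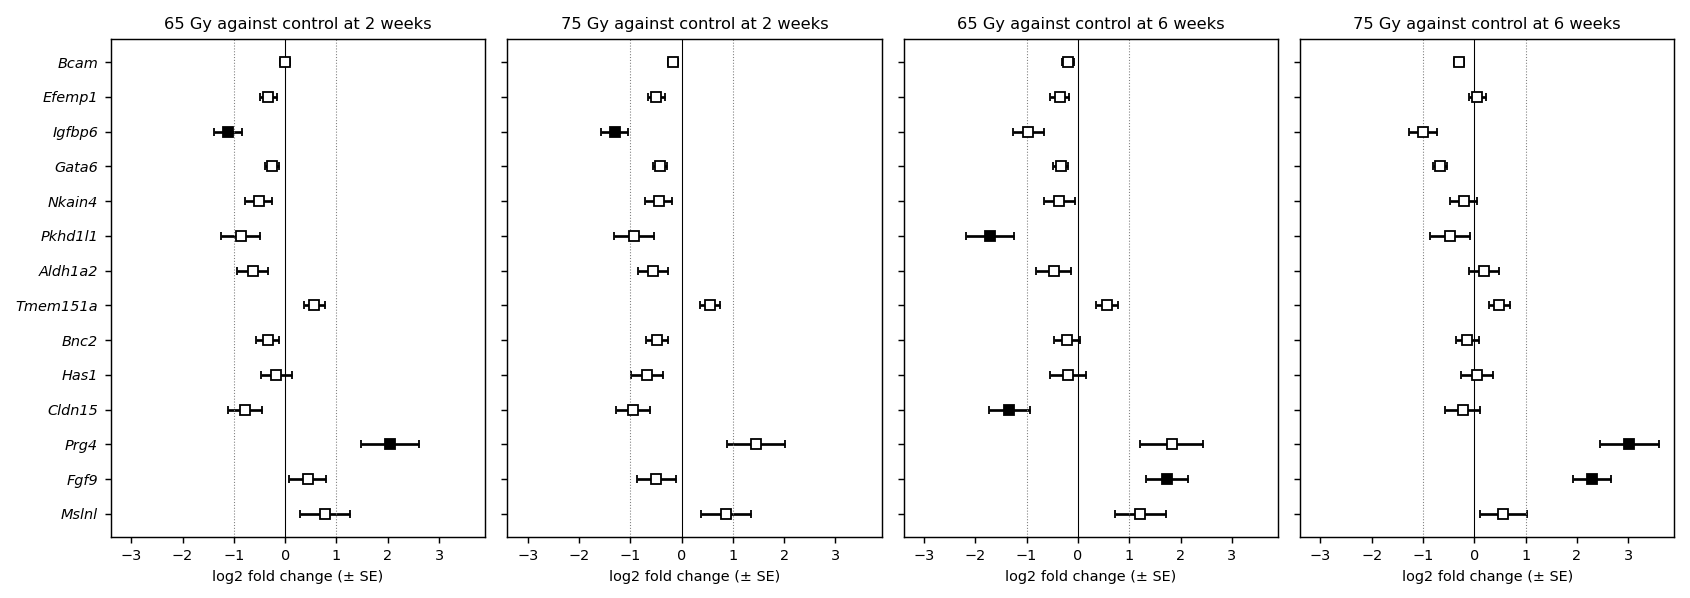
Log2 fold change ± SE of 14 further mesothelial genes against the controls of the same time, in 1 panel for each dose and time, with filled squares for genes past both limits. Pkhd1l1 and Cldn15 lie to the left at 65 Gy and 6 weeks, and Prg4 (3.02) and Fgf9 (2.30) lie farthest to the right at 75 Gy and 6 weeks.

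Keratins and surface proteins that mesothelium shares with epithelium (7 genes) had none called in any of the 4 comparisons. Of all genes 4.35%, 7.74%, 5.28% and 10.4% were called, so none of 7 is little different. The median log2 changes of the 7 were 0.10, 0.05, 0.17 and 0.22. At 2 weeks Pdpn was at 0.45 at 65 Gy and 0.56 at 75 Gy by edgeR (adjusted p = 0.0214 and 0.00305). These were short of the fold limit, and Pdpn is named because of these values. The most abundant of the 7 were Cdh1, the epithelial cadherin, with log2 changes from -0.36 to 0.14, and Ezr, which links membrane to actin, with -0.17 to 0.03. A further list held paralogs of the 10 genes and other genes of like name or function (17 of 19 tested). Read beside the same shares of all genes called as above, this list had 1 rise at each dose at 2 weeks. At 6 weeks it had 2 rises at 65 Gy, and 2 rises and 1 fall at 75 Gy. The median log2 changes of this list were -0.22, -0.10, -0.32 and -0.04. Lrrn1, related to Lrrn4, rose by 3.55 ± 0.62 and 3.998 ± 0.59 at 6 weeks (adjusted p = 0.00208 and 0.000178). Its levels of that time were low, 0 to 0.114 CPM in controls and 0.577 to 1.52 in the irradiated libraries. The mucin Muc4 rose by 1.03 at 65 Gy and 2 weeks and by 1.16 at 65 Gy and 6 weeks (adjusted p = 0.0313 and 0.0228). At 75 Gy and 2 weeks Muc4 was at 0.98 by edgeR (adjusted p = 0.0220), just short of the fold limit. At 75 Gy and 6 weeks it had 77.6 to 99.8 CPM against 32.3 to 57.5 in controls. S100g, a calcium-binding protein like calretinin, rose by 1.23 at 75 Gy and 6 weeks (adjusted p = 0.00276). Upk2 was the 1 gene of this list that fell, by 1.42 at 75 Gy and 6 weeks (adjusted p = 0.0202), and it is named because of that value. Of 18 genes of the R-spondin and WNT pathway, 0, 2, 2 and 1 were called higher in the 4 comparisons and none lower. These stand beside the 4.35%, 7.74%, 5.28% and 10.4% of all genes called. The median log2 changes of the 18 genes were below 0 each time, at -0.30, -0.39, -0.23 and -0.37. Wnt7b, an epithelial WNT ligand, rose by 1.12 at 75 Gy and 2 weeks, 1.19 at 65 Gy and 6 weeks and 1.29 at 75 Gy and 6 weeks (adjusted p = 0.00152, 0.00342 and 0.00032). Sp5, a WNT target, rose by 1.01 at 65 Gy and 6 weeks (adjusted p = 0.0395), and Rspo2, the paralog of Rspo1, rose by 1.49 at 75 Gy and 2 weeks (adjusted p = 0.0466).

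Other cell types shifted in the same libraries. The summed CPM of 4 endothelial markers was 2854 to 2947 in the 6-week controls, 1551 to 1740 after 65 Gy and 1195 to 1443 after 75 Gy, and that of 6 alveolar type 1 markers was 5241 to 5924, 4011 to 4384 and 3743 to 4290. The endothelial sum was lower in every 75 Gy library than in both 65 Gy libraries, whereas Upk3b, Wt1 and Muc16 had the reverse order. Fibroblast markers (6 genes) summed to 869 to 1115 CPM in the 6-week controls, 1458 to 1619 after 65 Gy and 1484 to 1828 after 75 Gy. The sums of the alveolar type 2 markers in these groups were 17692 to 19631, 20002 to 25665 and 19795 to 27447 CPM. Their median log2 changes were 0.01 at 65 Gy and -0.13 at 75 Gy. Markers of tissue outside the alveoli varied as well. The 5 cardiac muscle markers summed to 161 to 627 CPM in the 6-week controls, 300.3 to 337 after 65 Gy and 472 to 658 after 75 Gy. The 5 adipocyte markers summed to 21.1 to 82.5, 34.4 to 41.9 and 48.1 to 65.9 CPM in turn. Whether these sums followed irradiation or where the tissue was taken was not tested. At 2 weeks library 3134 had the lowest sum of the 17 for endothelial (1178 CPM), cardiac muscle (65.2 CPM) and adipocyte markers (6.51 CPM). The controls of that time had 2584 to 2917, 302 to 387 and 53.7 to 66.5 CPM. Library 3134 was also the lowest for alveolar type 1 (3044 CPM), alveolar type 2 (14885 CPM), airway (6344 CPM) and smooth muscle markers (265 CPM). It was not the lowest for fibroblast, neuroendocrine and neural, skeletal muscle or thymocyte markers. Airway markers (6 genes) summed to 17497 to 20522 CPM in the 6-week controls, 13345 to 13824 after 65 Gy and 10071 to 13748 after 75 Gy. Such a sum is weighted toward its most abundant genes, and the median log2 changes of the 6 were -0.12 and 0.12. The sums of smooth muscle (414 to 649.9, 402 to 510.3 and 404 to 527 CPM), skeletal muscle (4.58 to 14.1, 7.53 to 7.59 and 9.80 to 14.9 CPM) and thymocyte markers (11.7 to 17.2, 13.9 to 14.97 and 11.01 to 13.3 CPM) overlapped those of the controls at both doses. None of these marker genes was at 0 in all libraries, and their part in the levels of the mesothelial genes was not tested.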

How the data were processed

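Stranded mRNA libraries were prepared by the authors from irradiated lesions and control lungs and sequenced from both ends. Trimming was done with Trimmomatic, alignment to GRCm38.p6 with HISAT2, and expression was estimated in StringTie. The deposited values are read counts per gene, whole numbers without scaling, for 17 libraries. How StringTie output became read counts, and whether strand was used, is not given in the sources used here.

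One model over the 17 libraries, with a coefficient per group, was fitted to the counts in edgeR 4.0.16 (R 4.3.3), using filterByExpr (minimum count 10, minimum total 15), TMM factors and the quasi-likelihood F test, with Benjamini-Hochberg adjustment over the 22052 genes tested. A call needed an adjusted p no higher than 0.05 and a log2 fold change of 1 or more in size, the limits of the study. CPM are scaled to TMM library sizes, and log2 CPM used a prior count of 2. Likeness is Pearson r of deviations from group means, among genes whose mean log2 CPM reached 1. A level of 0 was set to 3 counts over the group for folds, which allow only for counting error in the group at 0. The script was tested on simulated data. Exon lengths came from GENCODE M21 and upstream sequences from RefSeq.

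The 10 genes and all lists were chosen with earlier results of these data known. All 10 are named, then up to 3 called genes of each list by smallest p, otherwise its 2 most abundant, and the 8 most alike genes. Upk2 and Pdpn are named besides, for their values. No replicate pair agreed within sampling noise. Alternatives were an adjusted p alone, no filter but 1 count, at least 10 counts in every library, RLE and upper-quartile factors, DESeq2 1.42.0, only the groups compared, and each library left out in turn.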

Additional observations from a re-analysis of the deposited data

Results flagged for a closer look

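The effect of 75 Gy on Fgf9 differed between the times, by 2.80 on the log2 scale at 6 weeks against 2 weeks (edgeR interaction term, adjusted p = 0.0379). The same difference for 65 Gy was 1.30 with an adjusted p of 0.549. Fgf9 had 0.183 to 0.400 CPM in the 2-week controls and 0.175 to 0.229 after 75 Gy at 2 weeks, against 0.105 to 0.211 and 0.749 to 0.820 at 6 weeks.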

How the results depend on the processing

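No paired analysis was possible because every library carries its own number and none of these numbers recurs in another group. The counts of called genes here include Calb2 where it was tested. With at least 10 counts in every library Calb2 and Wt1 were not tested, and the counts of genes called were 0 at 65 Gy and 0 at 75 Gy at 2 weeks, 3 at 65 Gy and 0 at 75 Gy at 6 weeks. With only the groups compared, 0 were called at 65 Gy and 2 weeks, where Calb2 was not tested, and 2 at 75 Gy and 2 weeks. DESeq2 called 2 at 75 Gy and 2 weeks, 1 between the doses at 6 weeks and 1 between the control times. The adjusted p alone gave 2 at 75 Gy and 2 weeks. Without a filter, and with upper-quartile factors, 1 was called at 75 Gy and 6 weeks. With a library left out, the counts ranged from 1 to 3 at 75 Gy and 2 weeks (3 without 3132), from 1 to 6 at 65 Gy and 6 weeks, from 1 to 2 at 75 Gy and 6 weeks and from 0 to 1 between the control times. At 75 Gy and 6 weeks 3 genes changed sign with a library left out. Msln ranged from -0.22 to 0.70 and was below 0 without 3135, 3137 or 3142, Wt1 ranged from -0.77 to 0.28 and Bnc1 from -0.89 to 0.11, both above 0 without 3136 or 3143. None of these 3 was called. Over 230 log2 changes of single genes under other settings, 222 kept their direction and side of the limits. With a library left out, 206 of 230 did so, 14 lost a call, 3 gained one and 7 changed sign. Most of these results were not called in the main fit and could lose no call. The 222 and 206 are therefore no measure of how firm the calls were. Genes near 1 CPM or less, Wt1, Bnc1, Calb2, Fgf9, Lrrn1, Rspo2 and Upk2, rest on few counts, and the 65 Gy group of 6 weeks on 2 libraries.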
